A study of Mus musculus and Rattus norvegicus with 30 samples.

Results

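The genes described here were 5 ligands of the interleukin-6 (IL-6) family (Il6, Lif, Cntf, Osm and Clcf1), 3 receptor chains (Il6st, Il6ra and Lifr) and the feedback inhibitor Socs3, measured by RNA sequencing in dorsal root ganglia (DRG) of mouse and rat. They were chosen by name, as the cytokines and receptors of the family with Socs3, with earlier results of these data known. They made up 9 of 54315 features in the mouse count table and 9 of 39281 in the rat count table. DRG hold the cell bodies of the sensory neurons that innervate the body. Mice of the strains BALB/c and B10.D2, of both sexes, received spared nerve injury (SNI), which severs the common peroneal and sural nerves and spares the tibial nerve, or a sham operation that exposed the nerve alone. Lumbar L3 and L4 DRG of 1 animal formed each mouse library, taken 28 days after surgery from mice that were procured at 4 to 8 weeks of age and operated on as adults. Male Wistar rats received ligation and transection of the L5 spinal nerve (SNT) or sham surgery, and L5 DRG of 3 pooled animals formed each library at 21 days. BALB/c gave 6 sham and 4 SNI libraries, B10.D2 gave 5 of each, and the rat gave 4 sham and 4 SNT libraries. SNI spares a branch, so the mouse ganglia, taken whole, can hold injured and uninjured neurons together, whereas L5 transection cuts the nerve of the ganglion that was sequenced.

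Ligands of this family signal through gp130, the shared receptor chain encoded by Il6st. IL-6 binds its own receptor chain (Il6ra) before it recruits gp130, whereas LIF, CNTF, oncostatin M and the CLCF1 protein act through gp130 paired with a second chain such as the LIF receptor (Lifr). Receptor engagement activates JAK kinases and the transcription factor STAT3, and STAT3 in turn induces SOCS3, which binds the receptor and shuts the signal off. In peripheral nerve the family is known for the response of sensory neurons and glia to axotomy.

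The start-site regions of the family are shown first because STAT3 acts downstream of these receptors and AP-1, the factor formed by Jun and Fos proteins, is a known regulator of cytokine genes. RefSeq promoter windows on GRCm38.p6, from 250 bases before to 50 bases after each start site, matched 7 of the 9 genes and gave 8 windows, with Lifr having more than 1. Clcf1 and Osm were not matched. Both strands were searched for the STAT motif TTCNNNGAA, the AP-1 motif TGANTCA and the CRE motif TGACGTCA, none of which can contain another. Socs3 was the only gene of the 7 with the STAT motif, which lay 154 bases before its RefSeq start site and is present in 8.3% of 32851 promoter windows of that length. In the GENCODE M21 annotation Socs3 spans chr11:117966079-117970047 on the minus strand, so there the motif lies within the gene. The 250 bases before the RefSeq start site on the minus strand, chr11:117969367-117969616, read as follows, with the STAT motif in capitals.
Socs3: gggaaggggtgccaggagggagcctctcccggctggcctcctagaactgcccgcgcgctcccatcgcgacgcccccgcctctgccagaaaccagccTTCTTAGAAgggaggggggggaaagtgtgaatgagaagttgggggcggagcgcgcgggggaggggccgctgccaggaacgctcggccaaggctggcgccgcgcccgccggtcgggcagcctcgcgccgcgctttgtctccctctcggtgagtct

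The AP-1 motif, present in 7.81% of all windows, was found in Il6, Lif and Cntf, and the CRE motif, present in 1.79%, was found in none of the 7. The AP-1 matches began 249 and 245 bases before the start sites of Il6 and Cntf, and that of Lif lies at the position given next. The 30 bases around each match, at chr5:30012864-30012893 on the plus strand, chr11:4257330-4257359 on the plus strand and chr19:12765853-12765882 on the minus strand, are given with the motif in capitals. These matches describe letters in the windows and were not measured as binding sites.
Il6: cTGAGTCActtttaaagaaaaaaaagaaga
Lif: cagtcagctgTGACTCAggccatagtggct
Cntf: gtatcTGACTCAtttaataagtgacaccta

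Mouse libraries held 29.99 to 41.9 M counts (M, mega) and rat libraries 12.0 to 17.9 M. Values are given as counts per M (CPM) after normalization of library composition, and a feature was called where the adjusted p of edgeR's quasi-likelihood test, over all features tested, was under 0.05. All 10 sensory neuron markers were counted in every mouse group. The 5 injured neuron markers (Atf3, Sprr1a, Sox11, Gal and Npy) were all called higher after SNI in both strains, and their summed level went from 32.0 to 64.04 CPM in sham to 316 to 466 CPM in SNI libraries of BALB/c, and from 36.9 to 54.4 CPM to 94.6 to 245 CPM in B10.D2. Of the 8 macrophage markers, 4 were called higher in BALB/c and none in B10.D2 by this test. Their median log2 fold changes were close, 0.50 and 0.42, and the difference was not tested. Of the other cell type lists, 1 Schwann cell, 1 endothelial and 1 fibroblast marker were called higher in BALB/c and 1 fibroblast marker in B10.D2. No satellite glial, T cell, B cell, neutrophil or mast cell marker was called in either strain by this test, and 2 of 10 sensory neuron markers were called lower in each. In rat, 6 of the 10 sensory neuron markers were counted and Tubb3, Pou4f1, Uchl1 and Nefh were listed at 0. The summed injured neuron markers, without Atf3, which was listed at 0, stood at 96.0 to 110 CPM in 3 sham libraries, at 343 CPM in the remaining one, labelled sham and called sham-232 here after its sample number, and at 470 to 732 CPM in SNT. Npy held 0 or 1 count in each rat library, and most of the sum was Gal, at 284 CPM in sham-232. Sprr1a (5.93 CPM) and Sox11 (52.9 CPM) of sham-232 also lay above the other sham libraries. On the first principal component, which held 71.5% of the variance, sham-232 (-6.33) and SNT-231 (1.09) stood apart, with 3 sham libraries at -48.7 to -35.7 and 3 SNT libraries at 30.6 to 49.9. The rat calls of the 9 genes and of the pathway list are therefore given with and without them. Leaving them out was a choice made on these same data and widens the gap between the groups on that component. Calls made without them follow in part from that choice. In whole ganglia, a change in the number of cells that carry a transcript and a change in the transcript per cell cannot be told apart.

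The receptor chain genes Lifr and Il6st were far more abundant than the other 7 genes in mouse DRG. Per kb of exon, which allows levels to be compared between genes, Lifr averaged 121 ± 7.06 CPM per kb and Il6st 81.5 ± 4.65 CPM per kb (SD, n = 20), and Lifr was above Il6st in 20 of 20 libraries. Cntf followed at 5.56 ± 2.20 CPM per kb and Socs3 at 3.74 ± 0.940 CPM per kb, in that order in 17 of 20 libraries. Of the 1073 exonic bases of Cntf, 847 are shared with another counted gene on the same strand. Its value per kb, taken over all 1073 bases, is therefore likely too low and its place in the order is uncertain. Il6ra averaged 0.815 ± 0.206 CPM per kb and Clcf1 0.512 ± 0.198 CPM per kb, and Il6ra was the higher in 19 of 20. The lowest levels were those of Lif (0.184 ± 0.0575 CPM per kb), Il6 (0.118 ± 0.0613 CPM per kb) and Osm (0.0992 ± 0.0437 CPM per kb). Il6 and Osm were ordered the same way in 13 of 20 libraries only, and their ranges overlapped almost completely. Il6 rested on 3 to 27 counts and Osm on 2 to 18 counts per mouse library, so their changes were measured with wide intervals.

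**Figure D1:**
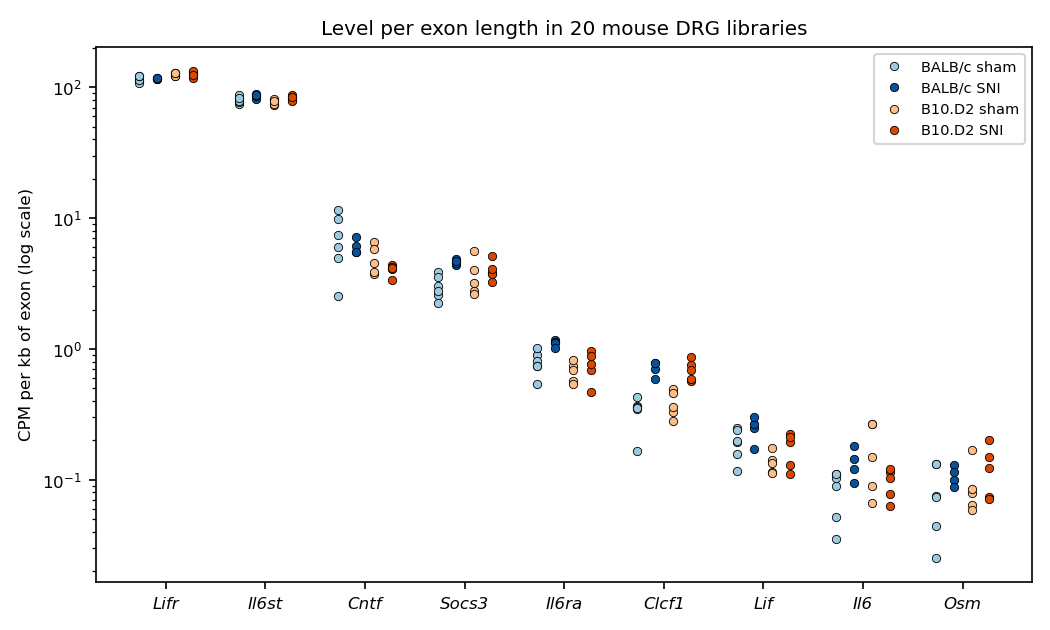
Level of the 9 genes in CPM per kb of exon (log scale) in each of the 20 mouse libraries, coloured by group. Lifr and Il6st stand above 70 CPM per kb in every library and the ligands Lif, Il6 and Osm below 0.300 CPM per kb.

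After SNI in BALB/c, the ligand gene Clcf1 and the inhibitor gene Socs3 rose and no gene of the 9 fell. Clcf1 went up 2.10-fold and Socs3 1.54-fold. Of all 24685 features tested, 9.69% were called in this comparison and 4.82% were called higher, against 2 of the 9 here. The median log2 fold change of the 9 genes was 0.43 against 0.00 over all features. That median was the estimate of the sparsely counted Osm, which was not called. Of the 9 estimates 8 were above 0, as were 50.7% of all features, and those of Lifr (0.02) and Il6st (0.10) were small.

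Clcf1 encodes cardiotrophin-like cytokine factor 1, a ligand of the CNTF receptor complex. In BALB/c sham it ranged from 0.628 to 1.62 CPM with a median of 1.36 CPM, and SNI libraries 49, 64, 65 and 70 held 2.24, 2.66, 2.96 and 2.95 CPM. Every SNI library was above every sham library. Sham averaged 1.28 ± 0.337 CPM (SD, n = 6) and SNI 2.70 ± 0.338 CPM (SD, n = 4). On the log2 scale the rise was 1.07 ± 0.198 (SE), with an adjusted p of 0.00107 by edgeR. By sex, 3 sham males held 0.628 to 1.40 CPM and 2 SNI males 2.24 to 2.95 CPM. The 3 sham females held 1.31 to 1.62 CPM and the 2 SNI females 2.66 to 2.96 CPM. Separation within each sex follows from that of all libraries and adds no further support.

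Socs3 ranged from 6.46 to 11.2 CPM in BALB/c sham with a median of 8.40 CPM. SNI libraries 49, 64, 65 and 70 held 12.6, 13.1, 14.1 and 13.7 CPM and again did not overlap with sham. Sham averaged 8.69 ± 1.77 CPM (SD, n = 6) and SNI 13.4 ± 0.646 CPM (SD, n = 4), which gave a log2 fold change of 0.62 ± 0.181 (SE) and an adjusted p of 0.0321 by edgeR. This call sat close to the threshold: it was lost when any of the BALB/c libraries sham 50, 51, 57 or 71 or SNI 49, 64, 65 or 70 was left out, with adjusted p up to 0.0956. Groups that did not overlap were found for 8.61% of all features. Summed macrophage markers were 118 to 280 CPM in BALB/c sham and 230 to 336 CPM in BALB/c SNI, with none of the 8 markers at 0, and their part in these results was not tested.

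Il6ra, the IL-6 binding chain, held 4.68 to 8.83 CPM in BALB/c sham with a median of 6.70 CPM, and 10.1, 9.78, 9.59 and 8.71 CPM in SNI libraries 49, 64, 65 and 70. A single SNI library fell below the highest sham library. Its log2 fold change was 0.48 ± 0.165 (SE) with an adjusted p of 0.0737 by edgeR, which missed the threshold, whereas DESeq2 gave an adjusted p of 0.0412 with a log2 fold change of 0.47. Il6st, the shared chain, had a log2 fold change of 0.10 ± 0.0448 (adjusted p 0.204 by edgeR), and its level stayed between 834 and 991 CPM in the 10 BALB/c libraries. For Lifr the log2 fold change was 0.02 ± 0.0435, with a 95% interval of -0.07 to 0.11.

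The remaining BALB/c ligands did not pass the test. Il6 stood at 0.0856 to 0.269 CPM in sham and at 0.292, 0.351, 0.441 and 0.227 CPM in SNI libraries 49, 64, 65 and 70, and its log2 fold change of 0.71 ± 0.399 (SE) had an adjusted p of 0.303 by edgeR. Osm had a log2 fold change of 0.43 ± 0.398 and Lif one of 0.36 ± 0.227, with adjusted p of 0.569 and 0.37 by edgeR. Cntf, a ligand made by Schwann cells, had a log2 fold change of -0.22 ± 0.269 with an adjusted p of 0.681 by edgeR.

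**Figure D2:**
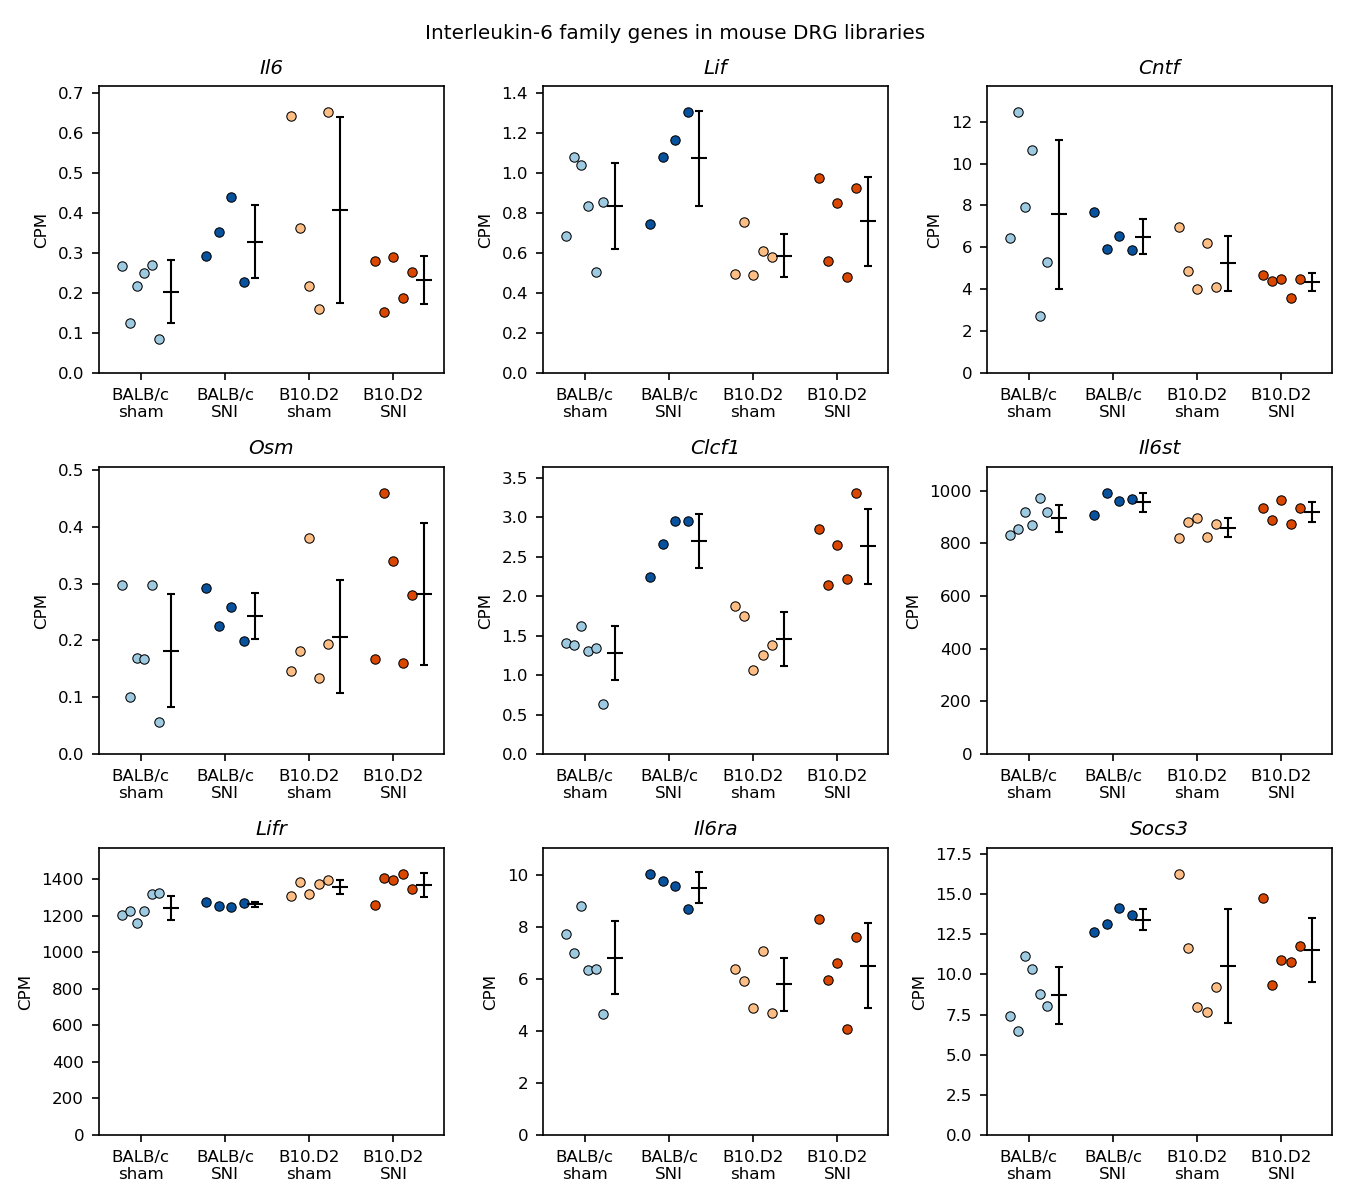
CPM of each of the 9 genes in every mouse library, by strain and surgery, with the mean and SD of each group beside its points. Clcf1 does not overlap between sham and SNI in either strain, and Socs3 does not overlap between sham (6.46 to 11.2 CPM) and SNI (12.6 to 14.1 CPM) in BALB/c.

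In B10.D2, Clcf1 was the gene of the 9 that rose after SNI, 1.81-fold, and none fell. Of all features 4.58% were called and 2.1% were called higher, against 1 of the 9. The median log2 fold change of the 9 was 0.13, against 0.01 over all features.

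Sham libraries 58, 60, 67, 77 and 88 held 1.87, 1.75, 1.06, 1.25 and 1.38 CPM of Clcf1. In SNI libraries 69, 76, 78, 89 and 90 it was 2.85, 2.14, 2.64, 2.22 and 3.30 CPM. The highest sham library lay below the lowest SNI library, a separation that 5.18% of all features showed. The means were 1.46 ± 0.340 and 2.63 ± 0.476 CPM (SD, n = 5 each), and the log2 fold change was 0.86 ± 0.198 (SE) with an adjusted p of 0.0135 by edgeR. The call was lost without sham 67, sham 77 or SNI 90, where adjusted p reached 0.0709.

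Socs3 was not called in this strain. Sham libraries 58, 60, 67, 77 and 88 held 16.3, 11.6, 7.96, 7.64 and 9.22 CPM, and SNI libraries 69, 76, 78, 89 and 90 held 14.7, 9.37, 10.9, 10.8 and 11.8 CPM. The highest value of all 20 mouse libraries belonged to a sham animal, and the groups overlapped. Its log2 fold change was 0.13 ± 0.183 (SE), with a 95% interval of -0.25 to 0.51 and an adjusted p of 0.801 by edgeR. Summed macrophage markers were 209 to 243 CPM in B10.D2 sham and 210 to 357 CPM in B10.D2 SNI.

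Il6 was at 0.643, 0.362, 0.217, 0.160 and 0.652 CPM in B10.D2 sham libraries 58, 60, 67, 77 and 88. In SNI libraries 69, 76, 78, 89 and 90 it was 0.279, 0.153, 0.291, 0.187 and 0.252 CPM. This was a log2 fold change of -0.78 ± 0.383 (SE) with an adjusted p of 0.316 by edgeR. Of the other genes, Il6ra had a log2 fold change of 0.14 ± 0.168, Lif 0.37 ± 0.243, Osm 0.36 ± 0.375 and Cntf -0.26 ± 0.275, and none passed the test. Il6st had a log2 fold change of 0.09 ± 0.0444 with a 95% interval of -0.01 to 0.18, and Lifr one of 0.02 ± 0.0430 with an interval of -0.07 to 0.11.

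**Figure D3:**
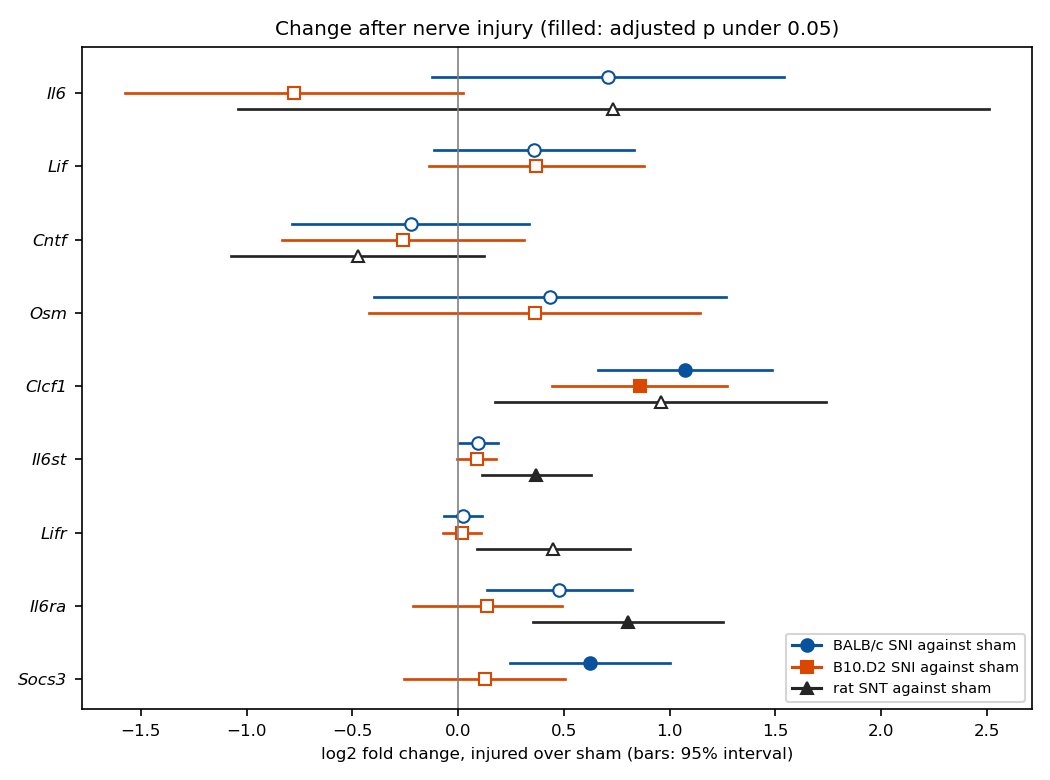
Log2 fold change of injured over sham (points, with bars for the 95% interval of the edgeR fit) for each gene tested in BALB/c, B10.D2 and rat, filled where the adjusted p was under 0.05. The Clcf1 intervals lie above 0 in all 3 comparisons and the mouse Il6st and Lifr intervals lie within 0.2 of 0.

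The difference between the strains in the response to SNI was tested directly as an interaction, and none of the 9 genes passed it, with an adjusted p of 1 for each by edgeR. Over all features, 6 (0.0243%) were called. The largest estimate among the 9 was that of Il6, a log2 difference of -1.48 ± 0.552 (SE, B10.D2 minus BALB/c response) with an unadjusted p of 0.014, the one gene of the 9 with an unadjusted p under 0.05. For Socs3 it was -0.50 ± 0.259, with an unadjusted p of 0.0686 in the edgeR fit. DESeq2 also called 0 of the 9. For Clcf1 the interaction estimate was -0.21 with a 95% interval of -0.80 to 0.37, so a difference of either direction within that range was not resolved.

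Between the strains themselves, 1 of the 9 genes was called in sham and 1 in SNI animals, where 21.6% and 20.8% of all features were called. Il6ra was lower in B10.D2 than in BALB/c after SNI. Its values were 8.32, 5.97, 6.62, 4.07 and 7.64 CPM in B10.D2 SNI libraries 69, 76, 78, 89 and 90, all below the lowest BALB/c SNI library at 8.71 CPM. B10.D2 averaged 6.52 ± 1.65 CPM (SD, n = 5) against 9.53 ± 0.583 CPM (SD, n = 4), and the log2 difference was -0.56 ± 0.173 (SE) with an adjusted p of 0.0229 by edgeR. That call was lost without BALB/c SNI 49, B10.D2 SNI 76 or B10.D2 SNI 89, where adjusted p reached 0.0757. In sham animals the log2 difference of Il6ra was -0.22 ± 0.160 with an adjusted p of 0.373.

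Lifr was the gene called in sham, slightly higher in B10.D2 with 1357 ± 38.9 CPM (SD, n = 5) against 1243 ± 65.4 CPM (SD, n = 6) in BALB/c. The log2 difference was 0.12 ± 0.0409 (SE, adjusted p 0.0331 by edgeR), and the ranges overlapped at 1311 to 1395 CPM and 1162 to 1327 CPM. This call was lost in 9 of the 20 fits that left out 1 mouse library, with adjusted p up to 0.0742. In SNI animals the log2 difference was 0.12 ± 0.0454 with an adjusted p of 0.0692. Cntf did not overlap between the strains after SNI, at 4.66, 4.39, 4.51, 3.59 and 4.48 CPM in B10.D2 and 7.69, 5.94, 6.53 and 5.87 CPM in BALB/c, while its log2 difference of -0.58 ± 0.285 had an adjusted p of 0.167 by edgeR. Groups that did not overlap made up 18.3% of all features in that comparison.

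Cntf differed widely between sham animals of BALB/c, with a coefficient of variation of 47.1%, against 5.26% to 26.3% for the other genes apart from the sparsely counted Il6 and Osm. In BALB/c sham libraries 50, 51, 55, 56, 57 and 71 it was 6.44, 12.5, 7.92, 10.7, 2.72 and 5.28 CPM. The summed levels of 8 Schwann cell markers in the same libraries were 2649, 5047, 3107, 3916, 2244 and 2947 CPM. The library with the most Cntf had the highest marker sum and the library with the least had the lowest, and their relation was not tested. Schwann cell sums were 3075 to 3616 CPM in BALB/c SNI, 2825 to 3080 CPM in B10.D2 sham and 2615 to 3104 CPM in B10.D2 SNI. Of the 1073 exonic bases of mouse Cntf, 847 are shared with Zfp91 on the same strand, so the Cntf counts rest on reads that could be placed on the rest of the gene, and its level is uncertain. Zfp91 did not pass the test in either strain, with log2 fold changes of -0.01 ± 0.0369 and -0.01 ± 0.0365 (SE).

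Sex was compared over all 20 mouse libraries with the group as a term. No gene of the 9 was called, and 0.243% of all features were. None of the 9 had an unadjusted p under 0.05 by edgeR. The estimate farthest from 0 was that of Osm, 0.41 ± 0.274 higher in females on the log2 scale, with an adjusted p of 0.596. For Clcf1 it was -0.03 ± 0.141 and for Socs3 0.01 ± 0.130.

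In rat L5 DRG after SNT, the receptor genes Il6r (the rat symbol for Il6ra) and Il6st rose, 1.74-fold and 1.29-fold, and none of the 6 genes that could be tested fell. Of 13690 features tested, 27.4% were called and 12.3% were called higher. Lif, Osm and Socs3 were listed at 0 in all 8 libraries. In mouse all 3 lie on chromosome 11, and 1295 of the 1297 rat genes that matched a mouse chromosome 11 gene by symbol were listed at 0, against 39.5% of all 15795 matched genes. No rat value for these 3 genes is therefore given.

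Il6r was at 31.0, 23.9, 21.3 and 41.8 CPM in libraries sham-229, sham-235, sham-226 and sham-232 and at 45.5, 55.9, 58.4 and 45.9 CPM in libraries SNT-231, SNT-237, SNT-228 and SNT-234. All SNT libraries lay above all sham libraries, with sham-232 the nearest. The means were 29.5 ± 9.18 and 51.4 ± 6.70 CPM (SD, n = 4 each), a log2 fold change of 0.80 ± 0.202 (SE) with an adjusted p of 0.0196 by edgeR. Leaving out sham-232, the log2 fold change was 1.03 with an adjusted p of 0.00297, and the call was lost without sham-235, sham-226 or SNT-237, where adjusted p reached 0.0551. Without both libraries that stood apart it was 1.08 ± 0.161 (SE). With the number shared by sample titles as a replicate block, adjusted p was 0.04998 by edgeR.

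Il6st was at 392, 448, 449 and 459 CPM in libraries sham-229, sham-235, sham-226 and sham-232. Libraries SNT-231, SNT-237, SNT-228 and SNT-234 held 500.1, 643, 557 and 558 CPM, with no overlap between the groups. From 437 ± 30.6 to 565 ± 59.04 CPM (SD, n = 4 each), the log2 fold change was 0.37 ± 0.115 (SE), with an adjusted p of 0.0392 by edgeR. It was called in only 2 of the 8 fits that left out 1 library, those without sham-232 and without SNT-231, and the adjusted p rose to 0.108 in the others. Without both of these libraries the log2 fold change was 0.45 ± 0.130 (SE). With the number shared by sample titles as a replicate block, Il6st was not called (adjusted p 0.0702 by edgeR).

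Lifr stood at 543, 713, 664 and 867 CPM in libraries sham-229, sham-235, sham-226 and sham-232 and at 878, 911, 873 and 1143 CPM in libraries SNT-231, SNT-237, SNT-228 and SNT-234. The groups did not overlap, as was the case for 26.5% of all features, and the highest sham library, sham-232, lay next to the lowest SNT library. The log2 fold change of 0.45 ± 0.162 (SE) had an adjusted p of 0.0642 by edgeR, and 0.0195 without sham-232. Leaving out SNT-231 as well gave 0.61 ± 0.165 (SE).

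Clcf1 held 2.57, 1.46, 3.42 and 4.43 CPM in libraries sham-229, sham-235, sham-226 and sham-232 and 3.35, 8.005, 5.34 and 6.36 CPM in libraries SNT-231, SNT-237, SNT-228 and SNT-234. The overlap came from sham-232, the highest sham library, and SNT-231, the lowest SNT library. The log2 fold change was 0.96 ± 0.351 (SE) with an adjusted p of 0.0674 by edgeR, and became 1.42 with an adjusted p of 0.00454 without both libraries.

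For Il6, libraries sham-229, sham-235, sham-226 and sham-232 held 0.0829, 0.183, 0.499 and 3.06 CPM, from 1, 3, 7 and 47 counts. Libraries SNT-231, SNT-237, SNT-228 and SNT-234 held 2.53, 0.871, 1.06 and 2.16 CPM. The library labelled sham-232 was the highest of all 8. With it the log2 fold change was 0.73 ± 0.797 (SE, adjusted p 0.51 by edgeR), and without it 2.63 ± 0.599 (adjusted p 0.0098). Leaving out both sham-232 and SNT-231 gave 2.34 ± 0.584 with an adjusted p of 0.0096, and the 3 sham libraries then averaged 0.255 ± 0.217 CPM against 1.36 ± 0.698 CPM in 3 SNT libraries.

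Cntf was the rat gene with an estimate below 0, at -0.47 ± 0.268 (SE, adjusted p 0.204 by edgeR). Its libraries sham-229, sham-235, sham-226 and sham-232 held 187, 83.9, 168 and 76.5 CPM, while the SNT libraries lay between 89.2 and 99.0 CPM, inside the sham range. Without sham-232, and also without both libraries that stood apart, 5 of the 6 genes tested were called higher (Il6, Il6st, Il6r, Lifr and Clcf1) and Cntf was not called, with log2 fold changes of -0.65 and -0.64 and adjusted p of 0.053 and 0.0609 by edgeR. Of all features, 17.3% were called higher without sham-232 and 21.1% without both, so the calls grew in number beyond these genes too. The libraries left out were chosen on these same data, so the added calls follow in part from that choice. Summed macrophage markers were 638, 352, 362 and 1472 CPM in libraries sham-229, sham-235, sham-226 and sham-232. They were 1310 to 1859 CPM in SNT, and the sum of sham-232 lay inside that range. Of the 8 markers, Cd68, Csf1r, Aif1 and Mrc1 were listed at 0 in every rat library, so the sum rests on the other 4. Most of the sum in sham-232 was Lyz2, at 1350 CPM. Lyz2 and Adgre1 (74.5 CPM) of sham-232 lay inside their SNT ranges. Cx3cr1 of sham-232 (27.8 CPM) lay above the other sham libraries but below every SNT library, the lowest being SNT-234 at 39.1 CPM. Cd163 was 19.4 CPM in sham-232, and its sham and SNT ranges overlapped. Schwann cell marker sums, in which 4 of the 8 markers were listed at 0, were 2152 to 2796 CPM in sham and 2561 to 4247 CPM in SNT. Fibroblast markers, 3 of 5 counted, summed to 2976 to 5330 CPM in sham and 6619 to 10775 CPM in SNT, with 2 of 3 called higher. T cell markers summed to 33.7 to 86.6 CPM and 101 to 153 CPM, with 2 of 4 tested called higher, and the 1 endothelial marker counted was called higher, at 37.8 to 51.3 CPM and 53.2 to 79.8 CPM. Of 4 macrophage markers tested 1 was called higher, and of 4 Schwann cell markers 2. Of the 6 sensory neuron markers tested, 3 were called lower, and their sums were 6232 to 9182 CPM in sham and 3848 to 7652 CPM in SNT. In the fit to all 8 libraries, 27.4% of all features were called in either direction and 12.3% were called higher. The part of these lists in the rat results was not tested.

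**Figure D4:**
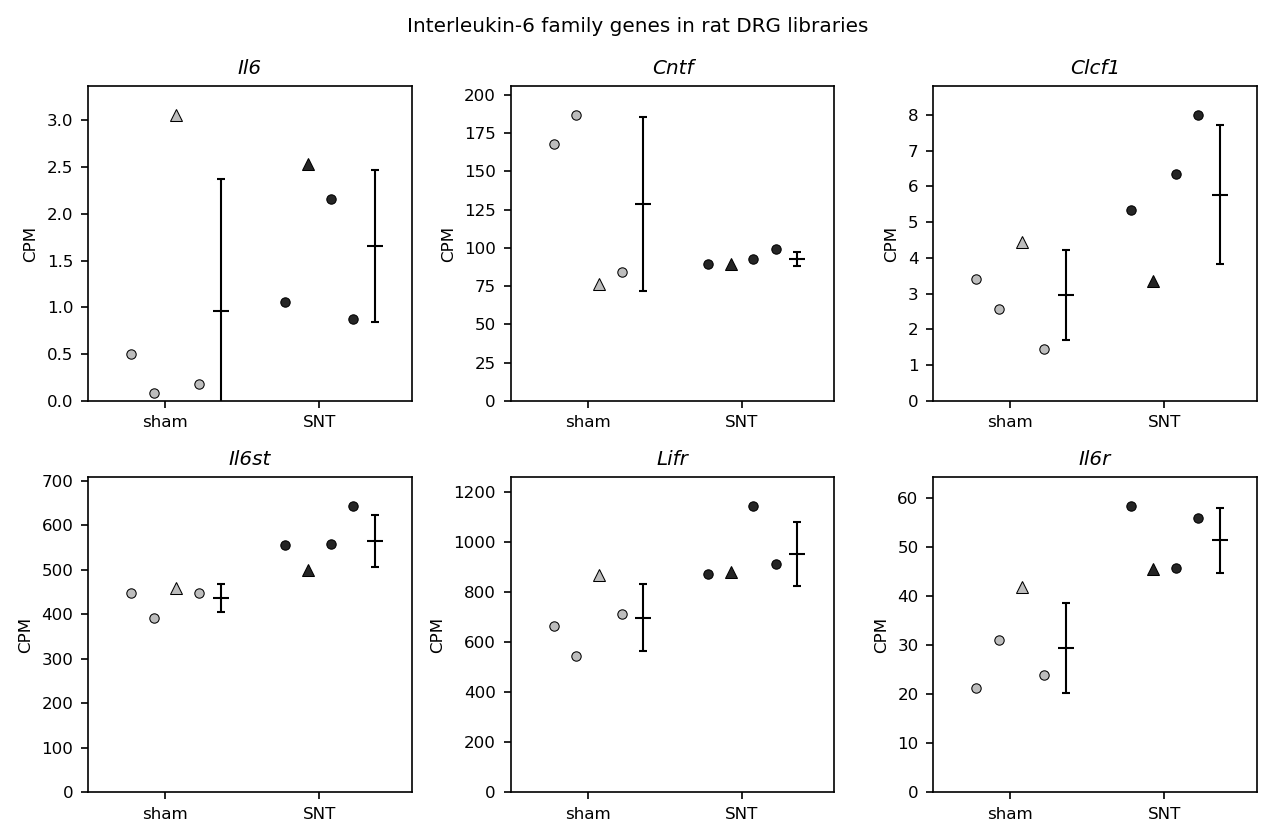
CPM of the 6 genes counted in rat, in each sham and SNT library of 3 pooled animals, with the mean and SD beside the points (the lower SD bar of Il6 sham is cut at 0) and triangles for sham-232 and SNT-231. The library sham-232 holds the highest Il6 value of all 8 libraries (3.06 CPM) and the highest sham values of Il6r, Lifr, Clcf1 and Il6st.

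The wider pathway was followed with a list of 75 genes in 5 classes, 9 of which are those above. Of the 66 others, 62 were tested in mouse. In BALB/c 17 rose and 0 fell, where 4.82% of all features were called higher, and in B10.D2 10 rose and 0 fell, where 2.1% were. In rat, where 39 of the 66 were tested and 23 were listed at 0, 18 rose and 1 fell, where 12.3% of all features were called higher. Without sham-232 these were 23 and 1, where 17.3% of all features were called higher. Without both libraries that stood apart they were 27 and 2, where 21.1% were. Every rat rise and fall named from the list was called in the same direction in both fits. The strain by SNI interaction called 1, Gal. The list was written with earlier results of these libraries known, so its counts are a description of direction.

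Cntfr, the receptor chain that binds CNTF, was looked up after the values of Clcf1 were seen and did not pass the test in mouse. It was at 9.89 to 15.4 CPM in BALB/c sham and 8.27 to 11.3 CPM in BALB/c SNI, and the groups overlapped. Its log2 fold change in BALB/c was -0.20 ± 0.128 (SE, adjusted p 0.367 by edgeR) and in B10.D2 -0.08 ± 0.125 (adjusted p 0.827).

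In rat the receptor genes that rose were Il6r, Il6st and Osmr, which encodes the oncostatin M receptor chain and rose by a log2 fold change of 0.38 ± 0.126 (SE, adjusted p 0.0474 by edgeR). Il31ra, a receptor of the family found on itch-sensing neurons, fell from 62.6 ± 17.7 to 16.4 ± 11.2 CPM (SD, n = 4 each) with an adjusted p of 0.0146. In mouse Osmr had log2 fold changes of 0.11 and 0.13 and did not pass the test in either strain.

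Changes of the signal transducers were small in mouse. Of 13 tested, Stat5a, Stat5b and Gab1 rose in BALB/c, with log2 fold changes of 0.55, 0.23 and 0.19. Gab1 and Stat5b also rose in B10.D2, with 0.20 and 0.18. Stat5a and Stat5b encode transcription factors related to STAT3, and Gab1 encodes an adaptor of the pathway. In rat 6 of the 13 were tested, and those that rose included Jak2 and Tyk2, by 0.74 and 0.46. Jak2 and Tyk2 encode kinases that bind cytokine receptors. The shares of all features called higher were 4.82% in BALB/c, 2.1% in B10.D2 and 12.3% in rat.

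Of the 15 inhibitors tested in mouse, Socs3 and Ptpn1 rose in BALB/c and 0 passed in B10.D2. The shares of all features called higher were 4.82% and 2.1%. The log2 fold change of Ptpn1, which encodes a tyrosine phosphatase acting on JAK kinases, was 0.22 in BALB/c with an adjusted p of 0.0432 by edgeR. In rat 4 of 7 inhibitors rose, namely Cish, Pias3, Ptpn1 and Ptpn6, where 12.3% of all features were called higher. The largest were Ptpn6 (0.92), Cish (0.68) and Ptpn1 (0.60). Ptpn6 encodes a phosphatase of blood cells, and Cish is a relative of Socs3. Of the shedding proteases, Adam17, which cuts the IL-6 receptor from the cell surface, rose by 0.29 on the log2 scale in BALB/c (adjusted p 0.00593) and was not called in B10.D2. In rat it was not called over all 8 libraries and was called higher without sham-232, with a log2 fold change of 0.74 (adjusted p 0.0129 by edgeR).

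Of the genes known as STAT3 targets, of which many are also injury genes of sensory neurons, 11 of 24 were called higher and 0 lower in BALB/c. The same count was 7 of 24 for B10.D2 and 10 of 17 for rat, again with 0 lower. In rat it was 13 without sham-232 and 15 without both libraries, where 17.3% and 21.1% of all features were called higher. Sham-232 had been set apart partly by Sprr1a, Sox11 and Gal, which are in this list, so both counts follow in part from that choice. Over all features, 4.82%, 2.1% and 12.3% were called higher in the fits to all libraries, and the classes were not tested against each other. The largest in BALB/c were Sprr1a (log2 fold change 4.92), Gal (4.18) and Atf3 (3.24), and in B10.D2 Sprr1a (5.05), Atf3 (2.69) and Gal (1.80). Gal, the neuropeptide galanin, was the gene of the list whose response differed between strains, by -2.37 on the log2 scale with an adjusted p of 0.014 for the interaction by edgeR. In rat the largest rises were those of the neuropeptide genes Vip (2.85) and Gal (1.92) and of Sprr1a (1.92). Sprr1a, Gal and Atf3 are also injured neuron markers, so these counts and that marker list are not separate measures.

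For each gene of the 9, the annotated genes with the most similar profile over the 20 mouse libraries were found by Pearson's r of log2(CPM + 1), among 16449 or 16450 genes of at least 1 CPM on average. The libraries include injured and sham animals of 2 strains, so r takes in group differences and library composition, and it is given as a description. Clcf1 was most like Axl (r = 0.924) and Bmp1 (r = 0.906). Socs3 was most like Sbno2 (r = 0.918) and Csrnp1 (r = 0.852). Il6ra was nearest to Syne3 (r = 0.901) and Lpp (r = 0.893), Lifr to Ugcg (r = 0.937) and Trpa1 (r = 0.899), and Il6st to Mapk14 (r = 0.923) and Dpy19l3 (r = 0.888). Cntf was nearest to Prrg3 (r = 0.928) and Cfap100 (r = 0.899), and Lif to Yap1 (r = 0.894) and Cyfip1 (r = 0.862). The sparsely counted Il6 (Ormdl3, r = 0.81, and Alkal2, r = 0.704) and Osm (Mob3c, r = 0.686, and Gm43288, r = 0.666) had weaker nearest profiles.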

How the data were processed

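Per the study's methods, the authors sequenced stranded libraries (ribosomal RNA depleted in mouse, polyA selected in rat), aligned reads with STAR to mm10 and rn6 and counted them with HTSeq over Ensembl genes and LncRNAs they assembled. The deposited tables hold raw counts per feature. Deposited columns of the authors' own comparisons were not used. Samples were grouped by the labels and are named by the sample number (mouse) or last number (rat) of their titles. The labels name 2 further mouse samples, which were not analysed here. Of 53 pairs of libraries within groups, 0 were identical.

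Counts were tested with the edgeR 4.0.16 quasi-likelihood test in R 4.3.3 after TMM normalization and filterByExpr. The mouse model held 4 groups and sex, the rat model surgery alone. P-values were two-sided and adjusted by Benjamini-Hochberg over all features tested, 24685 in mouse and 13690 in rat. SE was the absolute log2 fold change over the square root of F. Calls used an adjusted p under 0.05. DESeq2 1.42.0, other normalizations and filters, fits without sex, within 1 strain and without each library were run as alternatives. The test was checked on simulated data. Counting error alone limits a library to a floor of 3 counts, 0.0716 to 0.1 CPM in mouse and 0.168 to 0.251 CPM in rat.

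All 9 genes were described. From the list of 75 pathway genes at most the 3 largest called rises and falls per class and comparison were named, and 2 genes of most similar profile per gene. Some genes that fall under these rules are not reported here. Members, pathway list and marker lists of 11 cell types were chosen with earlier results of these data known. Mouse positions, exon lengths and symbols came from GENCODE M21, to which 49326 of 49585 identifiers (99.5%) matched, and promoter sequences from RefSeq on GRCm38.p6. Rat genes were matched by the symbol in the table, with Il6ra found as its synonym Il6r.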

Additional observations from a re-analysis of the deposited data

Results flagged for a closer look

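Of 48 groups of 4 to 6 libraries with values, 6 held a library whose gap to the nearest of the others took up an unusually large part of the group's range, by Dixon's 95% critical value. Chance flags about 1 in 20 groups. Il6 in rat sham-232 was 3.06 CPM against 0.0829 to 0.499 CPM in the other sham libraries, and Il6 was called in rat without it. Leaving out the highest sham value raises the estimate by itself. Il6st in rat sham-229 was 392 CPM against 448 to 459 CPM, and Il6st lost its call without that library (adjusted p 0.0773 by edgeR). Lifr in rat SNT-234 was 1143 CPM against 873 to 911 CPM. In mouse, Clcf1 in BALB/c sham 71 was 0.628 CPM against 1.31 to 1.62 CPM, and BALB/c SNI still gave a call for Clcf1 without it. Cntf in B10.D2 SNI 89 was 3.59 CPM against 4.39 to 4.66 CPM. Osm in B10.D2 sham 67 was 0.380 CPM, from 14 counts, against 0.133 to 0.193 CPM.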

How the results depend on the processing

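Of 1490 log2 fold changes of single genes recomputed under an alternative, 34 lost their call, 20 gained one and 0 that were called changed sign. Without both rat libraries that stood apart, an alternative chosen after seeing the data, 5 genes were called in rat in place of 2, with 21.1% of all features called higher in place of 12.3%. With all 8 rat libraries DESeq2 called 4, and called 4292 of 16415 features, against 3753 of 13690 by edgeR. Between the strains in SNI animals, DESeq2 called 2 genes in place of 1, and 5436 of 31443 features. In sham animals no filter gave 0 and no sex term 2 in place of 1, with 5507 of 41893 and 5143 of 24685 features called. Leaving out 1 library at a time gave 1 to 3 called genes for BALB/c SNI and 0 to 1 for B10.D2 SNI. It gave 0 to 2 for the strains in sham, 0 to 2 for the strains in SNI and 0 to 5 for rat SNT. For the interaction and for sex it gave 0 throughout. Calls over all features ran from 1643 to 2649 for BALB/c SNI, 665 to 1214 for B10.D2 SNI and 1483 to 5041 for rat SNT. For the strains they ran from 4515 to 5473 in sham and 4217 to 5269 in SNI. The cause of these changes was not tested. Between rat sham and SNT libraries of the same title number, correlations of deviations were 0.05, -0.293, -0.114 and -0.0936. With 1 sham and 1 SNT library per number, these cannot decide whether the samples were paired. The fit with that number as a replicate block called 1 gene, Il6r (adjusted p 0.04998 by edgeR), and 2558 of 14678 features. Il6st lost its call in that fit (adjusted p 0.0702 by edgeR). Il6 could not be tested in rat with at least 10 counts in every library. Low counts limit Il6 and Osm in mouse and Il6 in rat.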

Other observations

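The B10.D2 values of Il6, all from few counts, are given here by sex. In males, 3 sham libraries held 0.362 to 0.652 CPM, from 12 to 27 counts, and 2 SNI libraries 0.187 to 0.252 CPM, from 7 to 9 counts. In females, 2 sham libraries held 0.160 to 0.217 CPM and 3 SNI libraries 0.153 to 0.291 CPM. In BALB/c, sham males held 0.0856 to 0.268 CPM against 0.227 to 0.292 CPM after SNI, and sham females 0.217 to 0.269 CPM against 0.351 to 0.441 CPM. Socs3 in B10.D2 was at 9.22 to 16.3 CPM in sham males and 10.8 to 11.8 CPM in SNI males, and at 7.64 to 7.96 CPM in sham females and 9.37 to 14.7 CPM in SNI females. The response to SNI was not tested for a difference between the sexes.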
